A study of Drosophila melanogaster with 64 samples.

Results

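The heads of injured male flies were compared at 10 d and at 3 d after a severe traumatic brain injury (TBI), to see which transcripts differed as the injured animals aged. The comparison used the 3 TBI 10 d and the 3 TBI 3 d libraries of the first of 2 library days, 6 of the 64 libraries of the series, and all 10567 genes with enough counts to test. It was repeated without TBI 10 d replicate 3, which carried yolk protein transcripts. All flies were w[1118] males of Bloomington stock 5905, reared at 25 °C with 12 h of light. They were 3 d old at the injury, so TBI 10 d flies were 13 d old and TBI 3 d flies 6 d old. Sham 10 d and sham 3 d flies (3 libraries each) had the same ages and no brain injury, and TBI 15 d (2 libraries) and TBI 7 d (3 libraries) covered a later span. Each library was made from polyA RNA of 20 pooled whole heads, and the labels call libraries of a group biological replicates. The p-values measure the spread between such pools, estimated over all 31 libraries (11 groups) of the first library day and not over the 6 alone.

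A fly head holds brain, compound eyes, antennae, mouthparts, fat body, muscle, hemocytes and cuticle. After injury, fly glia clear debris through engulfment receptors, the Toll and Imd pathways induce immune peptides, and stress kinases switch on a repair programme. Young adult heads also mature over the same days without injury. In bulk samples such as these, fewer cells of a type and less RNA per cell cannot be told apart.

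The TBI 10 d libraries held 20235003, 13982198 and 14222781 counts assigned to genes, and the TBI 3 d libraries 11158951, 9163576 and 13032552. In TBI 10 d replicate 3, 10.7% of reads were not aligned, against 4.24% to 5.81% in the other 5 libraries. The defining markers of the head were present in all 6: 4 photoreceptor markers summed to 58930 to 63020 CPM (counts scaled to a common library size) in TBI 10 d and 48670 to 59540 CPM in TBI 3 d, and 4 neuron markers to 3867 to 4127 CPM in TBI 10 d and 3987 to 4971 CPM in TBI 3 d. The neuron gene elav and the glia gene repo had log2 fold changes of -0.21 ± 0.16 and -0.12 ± 0.22 (standard error, as throughout), neither past the test. Sums of markers use CPM by library size alone; all other CPM values are also scaled by a TMM factor, and a value with ± in brackets after a gene is its log2 fold change, TBI 10 d over TBI 3 d.

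Between the 2 times, modest falls were more frequent than rises, and the largest rises came from few genes. Of 10567 genes tested, 213 (2.02%) passed edgeR's quasi-likelihood test at a Benjamini-Hochberg adjusted p under 0.05. There were 76 higher genes (0.719%), with a median log2 fold change of 0.94, and 137 lower genes (1.3%), with a median of -0.55. A change beyond 1 log2 unit was reached by 36 higher and 31 lower genes. The TBI 10 d and TBI 3 d libraries did not overlap for 208 of the 213, against 20.5% of all genes (9.98% with TBI 10 d higher and 10.5% with it lower). That count uses the libraries that chose the 213 genes and is a description. Without TBI 10 d replicate 3, 242 genes passed (2.29%), 99 higher (0.938%) and 143 lower (1.35%), and 145 genes passed both times. The count was 73 without TBI 10 d replicate 1, 53 without TBI 10 d replicate 2, 45 without TBI 3 d replicate 1, 89 without TBI 3 d replicate 2, and 12 when only these 2 groups were fitted. With each of the 6 libraries left out in turn, 26 genes passed every time, 6 higher and 20 lower.

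Among the genes that passed, the 5 largest rises apart from the yolk genes Yp1 and Yp2 were transcripts of the antenna. Odorant-binding proteins fill the fluid of the olfactory sensilla and carry odorants to the receptors. Obp83b had 9.62, 24.4 and 9.19 CPM in TBI 10 d, against 0.263, 0.207 and 0.372 CPM in TBI 3 d. Its neighbour Obp83a had 10.1, 21.4 and 12.1 CPM in TBI 10 d, against 0, 0.622 and 0.893 CPM in TBI 3 d. All 3 TBI 10 d libraries lay far above all 3 TBI 3 d libraries for both, and replicate 2 was the highest. The log2 fold changes were 5.60 ± 1.30, adjusted p = 0.0292 for Obp83b and 4.79 ± 1.15, adjusted p = 0.0335 for Obp83a. In the BDGP6.54 annotation both genes lie on the minus strand of 3R, Obp83a at bases 5972155 to 5975245 and Obp83b at bases 5976177 to 5976817.

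Os-C, a protein of olfactory sensilla, had 6.61, 15.4 and 8.64 CPM in TBI 10 d, against 0.438, 0.207 and 0.372 CPM in TBI 3 d (4.85 ± 1.24, adjusted p = 0.0441). Obp19a had 1.83, 3.21 and 2.19 CPM in TBI 10 d, against 0, 0 and 0.0744 CPM in TBI 3 d (6.05 ± 1.17, adjusted p = 0.0105). The antennal protein gene a10 had 18.7, 26.4 and 12.0 CPM in TBI 10 d, against 0.876, 0.622 and 1.56 CPM in TBI 3 d (4.16 ± 0.73, adjusted p = 0.00434). None of the 3 overlapped between the times, and of these 5 genes a10 alone passed with each of the 6 libraries left out. Smaller rises were seen for lush, an odorant-binding protein needed to detect a male pheromone (1.19 ± 0.30, adjusted p = 0.0389), for Antdh, an antennal dehydrogenase (1.33 ± 0.28, adjusted p = 0.0140), and for Obp19d (1.19 ± 0.28, adjusted p = 0.0297).

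In a list of odorant-binding protein genes that leaves out lush, 31 were tested. Of these 4 rose and 0 fell (12.9% higher, against 0.719% of all genes), with a median log2 fold change of 0.50, against 0.02 over all genes. A list of 13 antennal genes, put together after these values were seen and given only as a description, had 12 tested members, of which 7 rose. Obp59a and Obp84a were at 0 in all 3 TBI 3 d libraries; they had 1.48, 1.21 and 1.44 CPM and 1.23, 2.36 and 1.58 CPM in TBI 10 d and did not pass (adjusted p = 0.0973 and 0.104). Orco, the co-receptor of the odorant receptors in olfactory neurons, had 5.58, 6.71 and 2.95 CPM in TBI 10 d and 2.19, 1.24 and 3.50 CPM in TBI 3 d, which overlap (adjusted p = 0.153). Ir25a, a co-receptor of ionotropic receptors, had a log2 fold change of -0.04 ± 0.32.

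In sham flies the sum of the antennal transcripts stayed low at both times, though a10 was higher at 10 d. The 13 genes summed to 87.9, 142 and 73.1 CPM in TBI 10 d, against 16.8, 18.6 and 28.6 CPM in TBI 3 d. They summed to 32.9, 26.4 and 19.5 CPM in sham 10 d, against 21.96, 23.4 and 25.2 CPM in sham 3 d. The 3 TBI 10 d libraries thus lay above all 6 sham libraries. The test of the difference between the TBI and sham changes did not pass for any of the 12 tested (for Obp83b 5.84 ± 2.00 log2 units, adjusted p = 1.00). Outside that list, Obp19d (1.13, adjusted p = 1.00) passed it with TBI and sham libraries of the same time and number paired (1.12 log2 units, adjusted p = 0.0268). a10 had 9.96, 9.65 and 4.06 CPM in sham 10 d, against 2.00, 1.99 and 2.12 CPM in sham 3 d. These did not overlap, but the rise of 1.96 log2 units did not pass either (adjusted p = 0.178).

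Single libraries elsewhere in the series carried the same transcripts. Obp83a, Obp83b and Os-C were all over 1 CPM by library size in 9 of the 64 libraries: the 3 TBI 10 d libraries, 5 other TBI libraries and 1 sham library. For Obp83a these others were TBI 7 d replicate 1 at 6.58 CPM, TBI 3 h replicate 2 at 3.58 CPM, TBI 15 d replicate 1 at 1.74 CPM and sham 1 h replicate 2 at 3.42 CPM. TBI 24 h replicate 1 had 8.73 CPM of Obp83a in its library of the first day and 5.59 CPM in that of the second day, which came from the same RNA. In the remaining 55 libraries Obp83a did not exceed 0.921 CPM. Levels therefore differed between replicates of 1 group; the heads were shaken off frozen flies, and the part of antennal tissue in these results was not tested.

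**Figure D1:**
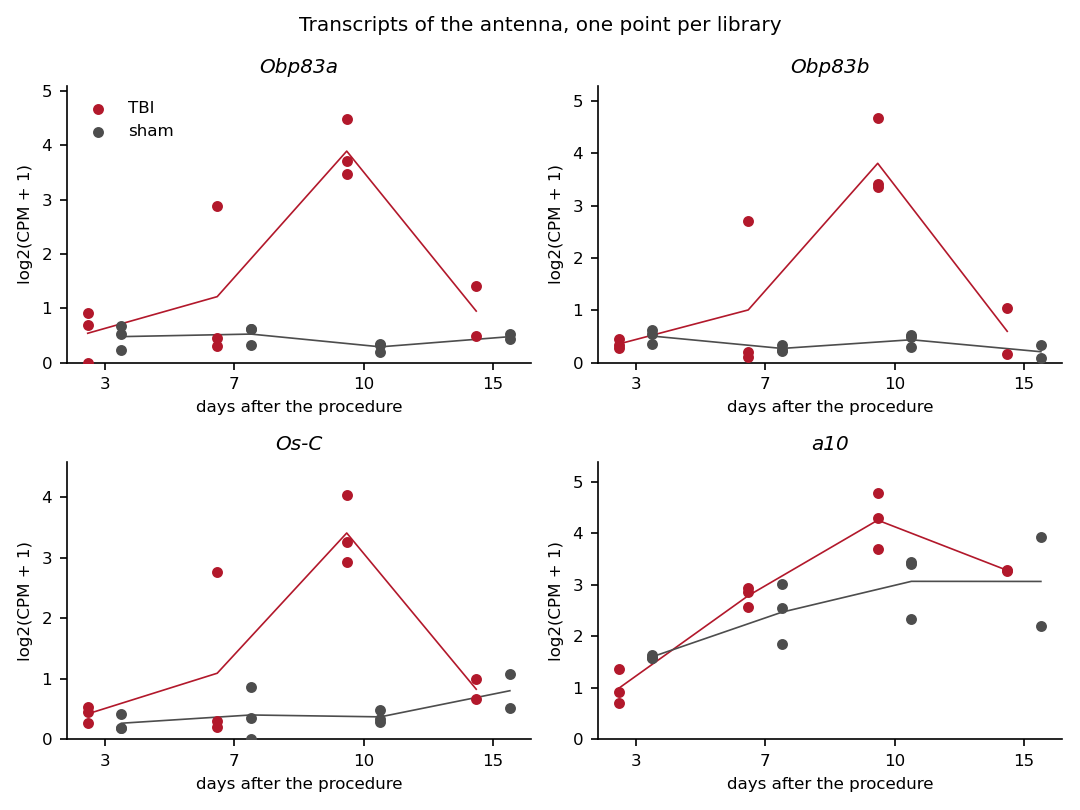
Levels of antennal genes in each library of TBI and sham flies, by days after the procedure, as log2(CPM + 1). For Obp83a, Obp83b and Os-C the 3 TBI 10 d libraries stand above every TBI 3 d and every sham library shown at 10 d or 3 d, and 1 TBI 7 d library, replicate 1, is also high.

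Several genes that were high in TBI 3 d, some of them of the early injury response, were lower at 10 d. nerfin-1, a zinc finger transcription factor of neuronal differentiation, had 1.33, 1.00 and 0.754 CPM in TBI 10 d, against 24.3, 36.9 and 23.1 CPM in TBI 3 d. In sham flies nerfin-1 had 0.638, 0.603 and 0.221 CPM in sham 10 d, against 0.577, 0.592 and 0.461 CPM in sham 3 d, so TBI 10 d libraries were closer to sham but still above it. The log2 fold change of -4.73 ± 0.33 (adjusted p = 1.18e-09) was the largest fall among genes that passed. TBI 7 d libraries were at 2.92, 1.72 and 1.00 CPM, still above sham 7 d libraries at 0.629, 0.259 and 0.893 CPM. The fall passed with each library left out and when only the 2 groups were fitted.

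NimC4, an engulfment receptor for dying cells, had 0, 0.0714 and 0.343 CPM in TBI 10 d, against 0.701, 4.46 and 3.79 CPM in TBI 3 d (-4.48 ± 0.69, adjusted p = 0.00101). These are few reads, and NimC4 lies wholly inside nAChRalpha5 on the same strand, so the genes may share reads. rpr, which triggers apoptosis, had 1.04, 0.786 and 1.37 CPM in TBI 10 d, against 2.80, 3.32 and 3.50 CPM in TBI 3 d (-1.58 ± 0.34, adjusted p = 0.0161). The fall of rpr did not pass without TBI 10 d replicate 1 or replicate 2. In sham flies rpr changed by -0.38 log2 units (adjusted p = 0.727). It did not pass between TBI and sham heads at 24 h (adjusted p = 0.0844). Act42A, a cytoplasmic actin, had 27.1, 26.1 and 33.7 CPM in TBI 10 d, against 51.4, 84.9 and 58.4 CPM in TBI 3 d (-1.16 ± 0.19, adjusted p = 0.00142). Neither rpr nor Act42A overlapped between the times, and in sham flies Act42A had 24.7, 26.1 and 26.1 CPM in sham 10 d, against 24.8, 31.4 and 28.6 CPM in sham 3 d.

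CG44774 and CG15537, genes without a given name, were high in TBI 3 d in the same way. CG44774 had 65.1, 58.3 and 112 CPM in TBI 10 d, against 153, 253 and 153 CPM in TBI 3 d (-1.25 ± 0.19, adjusted p = 0.00101). In sham flies it had 56.3, 58.2 and 57.6 CPM in sham 10 d, against 46.3, 45.2 and 48.8 CPM in sham 3 d. Of its 11442 annotated bases, 1470 are shared with a hairpin RNA gene on the same strand. CG15537 had 44.9, 42.2 and 47.3 CPM in TBI 10 d, against 89.4, 118 and 87.1 CPM in TBI 3 d (-1.13 ± 0.12, adjusted p = 3.96e-06). Neither gene overlapped between the times, and TBI 10 d replicate 3 was the highest TBI 10 d library for CG44774. Nrt, the adhesion protein neurotactin, had 35.5, 34.5 and 29.2 CPM in TBI 10 d, against 58.3, 61.0 and 51.6 CPM in TBI 3 d (-0.78 ± 0.11, adjusted p = 0.000320). In sham flies Nrt changed by -0.28 log2 units (adjusted p = 0.280). It did not pass between TBI and sham heads at 24 h (adjusted p = 0.196).

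**Figure D2:**
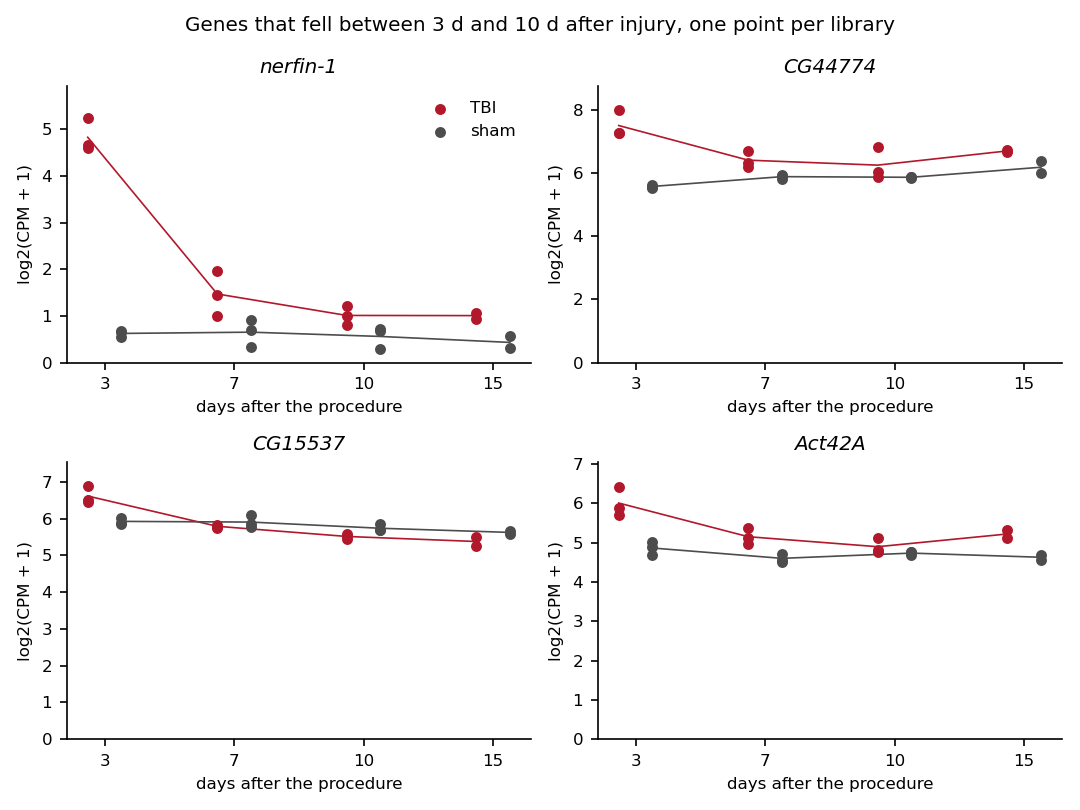
Levels of genes that were high 3 d after injury, in each library of TBI and sham flies by days after the procedure, as log2(CPM + 1). The 3 TBI 3 d libraries stand above the 3 TBI 10 d libraries for nerfin-1, CG44774, CG15537 and Act42A, and for nerfin-1 the 3 TBI 7 d libraries are still above the 3 sham 7 d libraries.

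Other genes known from the injury response did not pass between the times. Of 16 followed, 2 fell, nerfin-1 and NimC4 (12.5%, against 1.3% of all genes), and 0 rose; 0 were higher also at an unadjusted p under 0.05 and by DESeq2. Ets21C, a stress-induced ETS transcription factor, had 3.90, 7.43 and 10.2 CPM in TBI 10 d and 6.48, 10.3 and 8.48 CPM in TBI 3 d (adjusted p = 0.845). The matrix metalloproteinase gene Mmp1 had 55.2, 61.4 and 68.7 CPM in TBI 10 d and 58.1, 97.7 and 74.4 CPM in TBI 3 d (adjusted p = 0.469). Both genes overlapped between the times. In sham 10 d libraries Ets21C spanned 1.79 to 3.03 CPM and Mmp1 32.2 to 46.2 CPM.

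Of the 804 genes that were higher in TBI than in sham heads at 24 h (7.61% of all genes, of 15.0% in either direction), 8 rose (0.995%) and 16 fell (1.99%) between TBI 3 d and TBI 10 d, with a median log2 fold change of -0.02. In sham flies 3 of these genes rose and 0 fell, with a median of 0.09. Among the 8 that rose after injury were l(2)k05911 (2.35 ± 0.51, adjusted p = 0.0212) and OS9 (1.48 ± 0.33, adjusted p = 0.0212). l(2)k05911 had 12.7, 23.1 and 29.9 CPM in TBI 10 d, against 1.49, 8.40 and 3.27 CPM in TBI 3 d, and 1.28, 1.27 and 1.33 CPM in sham 10 d. For both genes the TBI minus sham difference did not pass, and neither passed with each of the 6 libraries left out. Of the 783 genes that were lower in TBI heads at 24 h (7.41%), 5 rose and 33 fell (4.21%), with a median of -0.11; without TBI 10 d replicate 3, 6 rose and 16 fell. In sham flies 0 of the 783 rose and 22 fell, with a median of -0.12. The 24 h comparison shares no library with the later ones, and its own count of 1587 was 928 when only its 2 groups were fitted and 2835 with its libraries of the same number paired. It was 775 without TBI 24 h replicate 1, 656 without TBI 24 h replicate 3, 601 without sham 24 h replicate 1 and 1016 without sham 24 h replicate 2.

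Few immune genes passed. None of 18 antimicrobial peptide genes and none of 17 Bomanins and other Toll effectors passed in edgeR; 1 and 3 were higher at an unadjusted p under 0.05, and DESeq2 called 1 of each higher. The antimicrobial peptides had a median log2 fold change of 0.69, and 0.20 without TBI 10 d replicate 3. Of 34 genes of Toll and Imd signalling, 2 rose (5.88%, against 0.719% of all genes) and 1 fell (2.94%, against 1.3%), with a median of 0.30. At an unadjusted p under 0.05, 12 were higher and 1 lower (866 and 912 of all 10567 genes). DESeq2 called 3 higher and 1 lower. A positive log2 fold change was seen for 31 of the 34, against 5622 of all 10567 genes, and for 28 of the 34 in sham flies. PGRP-LF, an inhibitor of Imd signalling, had 36.9, 31.6 and 40.5 CPM in TBI 10 d, against 12.4, 20.8 and 19.8 CPM in TBI 3 d (1.04 ± 0.26, adjusted p = 0.0407), and did not pass when any 1 of the 6 libraries was left out. Tab2, an adaptor of the Imd pathway, rose by 0.48 ± 0.10 log2 units (adjusted p = 0.0135).

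The fall was in dl, the NF-kappaB factor dorsal, which had 111, 108 and 124 CPM in TBI 10 d, against 139, 188 and 134 CPM in TBI 3 d (-0.43 ± 0.11, adjusted p = 0.0498), while in sham flies it had 90.3, 78.4 and 80.7 CPM in sham 10 d, against 71.6, 64.2 and 58.6 CPM in sham 3 d. The test of that difference did not pass (adjusted p = 0.0968), nor did the fall itself without TBI 10 d replicate 1 or 2 or TBI 3 d replicate 1 or 2. Sting, a sensor of cyclic dinucleotides in antiviral defence, had 23.4, 23.4 and 25.1 CPM in TBI 10 d, against 11.4, 17.4 and 13.98 CPM in TBI 3 d (0.75 ± 0.13, adjusted p = 0.00434). All 3 TBI 10 d libraries were above all 3 TBI 3 d libraries for Sting, and it passed with each of the 6 left out.

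Most transcripts of the mitochondrial genome were lower at 10 d. This genome codes for core subunits of the respiratory chain. Its genes took 2.15% to 3.05% of gene counts in TBI 10 d, against 4.0% to 6.06% in TBI 3 d. Most of this share was the ribosomal RNA mt:lrRNA and not messenger RNA of those subunits. By library size mt:lrRNA had 11360, 11910 and 20540 CPM in TBI 10 d, against 37710, 32750 and 24230 CPM in TBI 3 d. Of 14 genes of this genome tested, 5 fell (35.7%, against 1.3% of all genes) and 1 rose (7.14%, against 0.719%), with a median log2 fold change of -0.97. mt:Cyt-b, the cytochrome b of complex III, had 384, 217 and 303 CPM in TBI 10 d, against 2820, 1467 and 1454 CPM in TBI 3 d (-2.67 ± 0.34, adjusted p = 0.000136). mt:ND1, a complex I subunit, had 395, 326 and 376 CPM in TBI 10 d, against 1163, 814 and 802 CPM in TBI 3 d (-1.34 ± 0.14, adjusted p = 4.65e-06). The times did not overlap for either. mt:ND4 (-2.11 ± 0.33, adjusted p = 0.00146), mt:ATPase6 (-1.40 ± 0.26, adjusted p = 0.00752) and mt:CoI (-0.76 ± 0.18, adjusted p = 0.0297) were the other genes that fell, mt:CoI not without TBI 10 d replicate 3. The gene that passed as higher, mt:ND6, had 12.7, 8.14 and 10.97 CPM in TBI 10 d, against 3.15, 4.15 and 2.60 CPM in TBI 3 d (1.70 ± 0.29, adjusted p = 0.00293). With only the 2 groups fitted mt:ND6 did not pass, but mt:ND2 did (1.29 log2 units, adjusted p = 0.0264). By library size mt:ND2 had 28.9, 23.0 and 30.3 CPM in TBI 10 d, against 12.4, 11.7 and 10.4 CPM in TBI 3 d.

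Sham flies showed falls of the same genome. There 9 of the 14 genes fell, with a median of -1.91. The 1 gene that rose was again mt:ND6 (1.21 log2 units, adjusted p = 0.0443). mt:Cyt-b had 218, 164 and 130 CPM in sham 10 d, against 3858, 4490 and 3387 CPM in sham 3 d. mt:ATPase6, a subunit of ATP synthase, had 455, 391 and 432 CPM in TBI 10 d, against 1701, 747 and 925 CPM in TBI 3 d, and 194, 256 and 151 CPM in sham 10 d, against 2150, 2257 and 1832 CPM in sham 3 d. Its TBI 10 d libraries were above all sham 10 d libraries and its TBI 3 d libraries below all sham 3 d libraries. The change over time differed by 1.98 ± 0.37 log2 units, TBI minus sham (adjusted p = 0.0466); the difference was positive for 13 of the 14 genes and passed for this one. That call was lost in 10 of the 12 fits that left out 1 library, including the one without TBI 10 d replicate 3 (adjusted p = 0.0793), with only the 4 groups fitted (0.443), with RLE size factors (0.0526) and with no filter (0.0837). mt:ATPase6 shares 7 bases with mt:ATPase8 and 1 base with mt:CoIII, and mitochondrial RNAs are cut from long precursors, so these genes are not independent.

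**Figure D3:**
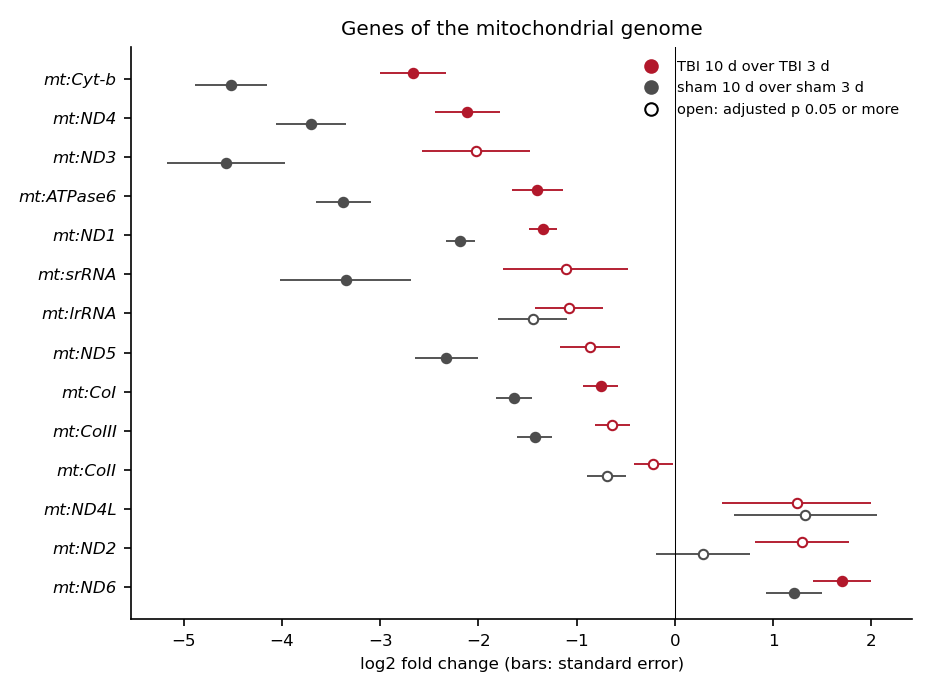
Log2 fold changes, with standard errors, of the 14 tested genes of the mitochondrial genome for TBI 10 d over TBI 3 d and for sham 10 d over sham 3 d. The median is -0.97 after injury and -1.91 in sham flies, and mt:ND6 is higher at 10 d in both.

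Most nuclear genes of the respiratory chain had lower levels at 10 d, but few passed. Of 57 tested, 4 fell (7.02%, against 1.3% of all genes) and 0 rose. Without TBI 10 d replicate 3, 2 fell. At an unadjusted p under 0.05, 28 were lower (912 of all 10567 genes), and DESeq2 called 8 lower (251 of all genes). A negative log2 fold change was seen for 54, against 4944 of all 10567 genes, and the median was -0.20. UQCR-14, a complex III subunit, had 101, 90.9 and 93.6 CPM in TBI 10 d, against 133, 145 and 124 CPM in TBI 3 d (-0.49 ± 0.09, adjusted p = 0.00478). Its times did not overlap, and it passed with each library left out. The complex I subunits ND-42 (-0.40), ND-20 (-0.35) and ND-49 (-0.31) also fell, with ND-20 and ND-49 lost when any 1 of the 6 libraries was left out and ND-42 lost without any but TBI 10 d replicate 3. In sham flies 2 of the 57 fell and 55 were negative.

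Most neuron and synapse genes also had lower levels at 10 d, but few passed. Of 34 tested, 3 fell (8.82%, against 1.3% of all genes) and 0 rose. At an unadjusted p under 0.05, 12 were lower (912 of all 10567 genes), and DESeq2 called 6 lower. Of the 34, 32 were negative, and the median log2 fold change was -0.20. Gad1, which makes the transmitter GABA, had 403, 366 and 414 CPM in TBI 10 d, against 625, 495 and 513 CPM in TBI 3 d (-0.46 ± 0.12, adjusted p = 0.0354). comt, the NSF ATPase that takes SNARE complexes apart, had 289, 276 and 277 CPM in TBI 10 d, against 407, 336 and 358 CPM in TBI 3 d (-0.39 ± 0.10, adjusted p = 0.0498). The times did not overlap for either, though comt did not pass when any 1 library was left out. ple, the tyrosine hydroxylase of dopamine synthesis, had 71.2, 54.8 and 52.7 CPM in TBI 10 d, against 70.3, 144 and 92.7 CPM in TBI 3 d (-0.78 ± 0.19, adjusted p = 0.0318), which overlap; it did not pass without TBI 10 d replicate 3 (adjusted p = 0.0811). In sham flies 2 of the 34 fell and 29 were negative.

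Of 30 neuropeptide genes 2 fell (6.67%, against 1.3% of all genes) and 0 rose, with 8 lower at an unadjusted p under 0.05 and 4 by DESeq2. Proc, the precursor of proctolin, had 53.9, 64.0 and 75.9 CPM in TBI 10 d, against 116, 116 and 94.8 CPM in TBI 3 d (-0.75 ± 0.18, adjusted p = 0.0297). In sham flies it had 59.2, 67.6 and 49.7 CPM in sham 10 d, against 69.1, 57.5 and 51.2 CPM in sham 3 d. Nplp1, a neuropeptide-like precursor, fell by 0.41 log2 units (adjusted p = 0.0389), but not without TBI 10 d replicate 3 (adjusted p = 0.0861), when 1 of the 30 fell. Among the other lower genes, picked after their values were seen, were AP-2mu and AP-2sigma of the clathrin adaptor (-0.44 and -0.47), the dynamin shi (-0.44), Rop, which binds syntaxin (-0.40), and Syt12, a synaptotagmin (-0.56). Of these AP-2mu passed with each of the 6 libraries left out, and shi did not pass without TBI 10 d replicate 3 (adjusted p = 0.0926). No gene of the glia (20 tested), clock (17) or proteasome (32) lists passed in edgeR; at an unadjusted p under 0.05 these had 2, 4 and 0 genes, and DESeq2 called 1, 1 and 0.

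Cytochrome P450 enzymes, which oxidise hormones, lipids and foreign compounds, had 6 higher genes (7.79%) and 1 lower gene (1.3%) of 77 tested, with a median log2 fold change of 0.41. Of all genes 0.719% were higher and 1.3% lower. Cyp4p1 had 171, 182 and 173 CPM in TBI 10 d, against 92.5, 114 and 90.8 CPM in TBI 3 d (0.82 ± 0.14, adjusted p = 0.00313). Cyp6g1, known from insecticide resistance, had 588, 770 and 737 CPM in TBI 10 d, against 222, 290 and 407 CPM in TBI 3 d (1.19 ± 0.27, adjusted p = 0.0276). Neither overlapped between the times. Cyp6a8 (1.35), Cyp4e1 (1.06), Cyp4e2 (0.99) and Cyp4d8 (0.78) also rose, and Cyp4ae1 (-0.88) fell. Cyp4p1 passed with each library left out; Cyp6g1, Cyp6a8, Cyp4e1 and Cyp4e2 each lost the call without at least 1 of the TBI 3 d libraries, and Cyp4e1 also without TBI 10 d replicate 3 (adjusted p = 0.116). In sham flies none of the 77 passed and the median was 0.21. Cyp4p1 and UQCR-14 lie wholly inside genes of the opposite strand; the kit keeps strand, but whether counting was stranded is not stated in the labels.

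Cuticle and muscle lists had lower genes. Of 47 cuticle protein genes 3 fell (6.38%, against 1.3% of all genes) and 0 rose, with a median of -0.52: Cpr76Bd (-2.34 ± 0.45), Cpr92F (-1.44 ± 0.37) and Cpr62Bc (-1.20 ± 0.26). Cpr92F did not pass without TBI 10 d replicate 3 (adjusted p = 0.0791). Of 23 sarcomere genes 1 fell (4.35%, against 1.3% of all genes), with 14 lower at an unadjusted p under 0.05 and 4 by DESeq2. The gene that fell was SERCA, the calcium pump of muscle, which had 743, 647 and 497 CPM in TBI 10 d, against 858, 967 and 908 CPM in TBI 3 d (-0.53 ± 0.12, adjusted p = 0.0223). The sarcomere median was -0.55 and 22 of 23 were negative; 4 muscle markers summed to 918 to 1231 CPM in TBI 10 d, against 1291 to 1944 CPM in TBI 3 d, and their part in the result was not tested. Without TBI 10 d replicate 3, 5 sarcomere genes fell, and SERCA did not pass (adjusted p = 0.0753).

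Of the 137 lower genes 29 also passed as lower in sham flies, among them ninaD, CG13305 and CG4000. ninaD, a scavenger receptor for carotenoid uptake, had 9.57, 18.3 and 5.35 CPM in TBI 10 d, against 44.3, 49.8 and 45.8 CPM in TBI 3 d (-2.08 ± 0.42, adjusted p = 0.0140); it changed by -1.91 log2 units in sham flies (adjusted p = 0.0410). CG13305 fell by 1.75 log2 units after injury (adjusted p = 0.000137) and by 1.15 in sham flies (adjusted p = 0.0124). CG4000 fell by 1.35 after injury (adjusted p = 0.00255), by 1.16 in sham flies (adjusted p = 0.0119), and by 1.36 between TBI 7 d and TBI 15 d (adjusted p = 0.0258). CG6409 rose after injury, with 3577, 3109 and 3076 CPM in TBI 10 d, against 630, 1384 and 1336 CPM in TBI 3 d (1.54 ± 0.22, adjusted p = 0.000341); in sham flies its log2 fold change of 0.68 did not pass (adjusted p = 0.167). Boot rose by 1.37 ± 0.23 log2 units (adjusted p = 0.00291) and again between TBI 7 d and TBI 15 d, by 1.36 (adjusted p = 0.0159), while 0.72 in sham flies did not pass (adjusted p = 0.148); it shares 388 bases with Nadk2 on the same strand.

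The yolk protein genes were by far the highest in 1 library. Yp1, Yp2 and Yp3 code for yolk proteins, made mostly by females. Yp1 had 11.2, 0.929 and 617 CPM in TBI 10 d, against 0.175, 2.70 and 2.31 CPM in TBI 3 d. Yp2 had 8.29, 0.929 and 242 CPM in TBI 10 d, against 0.350, 1.87 and 1.49 CPM in TBI 3 d. TBI 10 d replicate 3 was far above the rest for both, and without it the times overlap. Yp3 had 84.5, 82.3 and 478 CPM by library size in TBI 10 d, against 63.2, 69.95 and 66.9 CPM in TBI 3 d. Its times do not overlap without replicate 3 either. In sham flies Yp3 had 86.7, 107 and 92.6 CPM in sham 10 d, against 73.45, 70.1 and 73.9 CPM in sham 3 d. All 3 yolk genes passed with TBI 10 d replicate 3 (log2 fold changes 6.93, 6.09 and 1.71) and none without it (adjusted p = 0.279, 0.176 and 0.0510). The sum of 7 ovary markers was 1.09 to 1.79 CPM in TBI 10 d and 0.896 to 1.20 CPM in TBI 3 d. None of 28 digestive enzyme genes passed (7 higher at an unadjusted p under 0.05, 0 by DESeq2). Their median was 1.31, and 0.42 over the 25 genes tested without TBI 10 d replicate 3. In sham flies the median of the 28 genes was 1.13, and 24 were positive. Beside them, 4 gut markers summed to 188 to 499 CPM in TBI 10 d and 50.3 to 211 CPM in TBI 3 d, and their part was not tested.

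**Figure D4:**
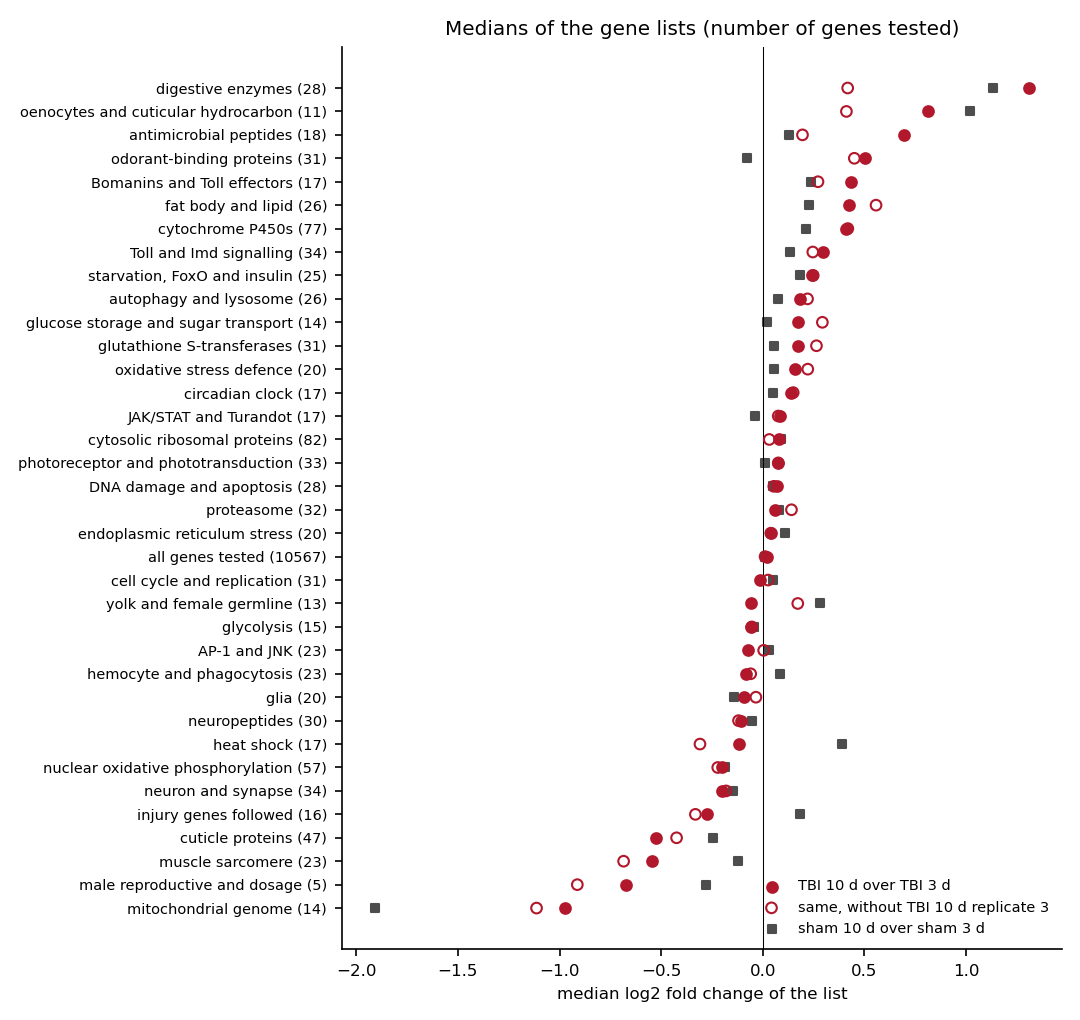
Median log2 fold change of each gene list, for TBI 10 d over TBI 3 d with all libraries, for the same without TBI 10 d replicate 3 (open circles), and for sham 10 d over sham 3 d. The mitochondrial genome is lowest, at -0.97 after injury and -1.91 in sham flies. The digestive enzyme median is 1.31 with all libraries, 0.42 over the 25 genes tested without TBI 10 d replicate 3, and 1.13 in sham flies.

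Much of the change over time had the same sign in sham flies. Between sham 3 d and sham 10 d 62 genes passed (0.587%), 7 higher (0.0662%) and 55 lower (0.52%), and between 14 and 36 passed when any 1 of those 6 libraries was left out. The sham and TBI comparisons share no library, but TBI and sham libraries of the same time and number deviate together from their group means, so the comparisons are not independent. Across the 10567 genes, which are not independent replicates, their log2 fold changes had r = 0.56, and 71.9% had the same sign. Of the 76 genes higher after injury 69 were positive in sham flies and 2 passed there. Of the 137 lower genes 128 were negative in sham flies and 29 passed. None of the 213 passed in the opposite direction.

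**Figure D5:**
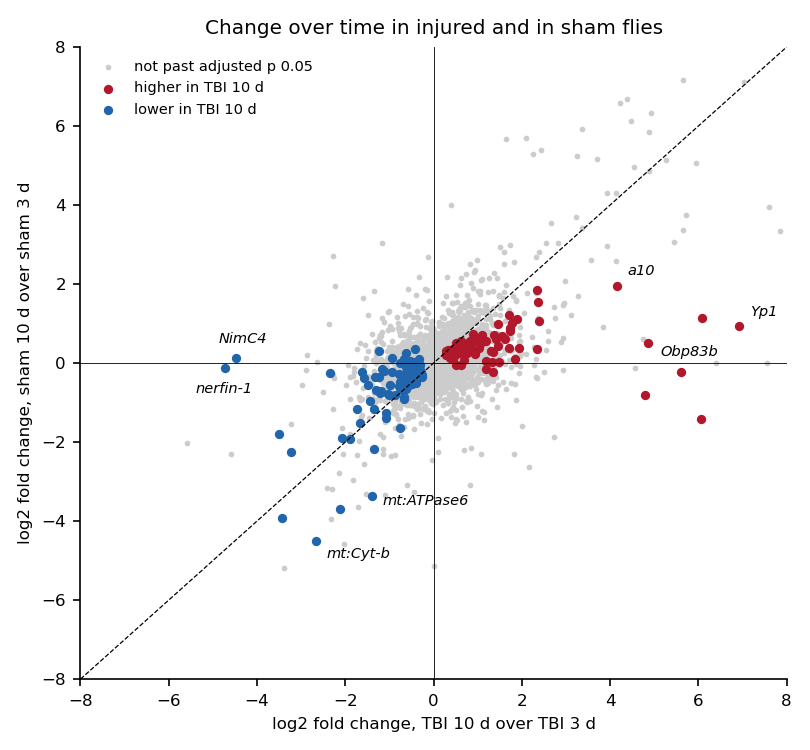
Log2 fold change of each gene for TBI 10 d over TBI 3 d against that for sham 10 d over sham 3 d, with 1 gene beyond the axes. Of the 76 higher and 137 lower genes of the TBI comparison, 69 and 128 have the same sign in sham flies.

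The change between 3 d and 10 d differed between TBI and sham flies for 4 genes (0.0379% of all genes), 1 with a positive difference (0.00946%) and 3 with a negative one (0.0284%). These were nerfin-1 (-4.60 ± 0.62 log2 units, TBI minus sham, adjusted p = 0.00102), CG44774 (-1.54 ± 0.27, adjusted p = 0.0218), CG15537 (-0.94 ± 0.16, adjusted p = 0.0218) and mt:ATPase6, described above. With TBI and sham libraries of the same time and number paired, 8 genes passed, 3 of them among the 4; CG44774 did not pass (adjusted p = 0.0995), and Act42A did (-1.01, adjusted p = 0.0406). When only these 4 groups were fitted, nerfin-1 alone passed (adjusted p = 0.0272). Without sham 10 d replicate 1 no gene passed in edgeR (259 at an unadjusted p under 0.05), with nerfin-1 at an adjusted p of 0.0605, and without TBI 3 d replicate 1, 11 passed.

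At the other times most of the genes that passed, but not all, lay along the same course. Mean levels in TBI 7 d lay between those of TBI 3 d and TBI 10 d for 74 of the 76 higher and 127 of the 137 lower genes. TBI 15 d lay on the same side of TBI 3 d as TBI 10 d did for 73 of the 76 and 137 of the 137. These counts use the libraries that chose the genes and are a description. TBI 15 d against TBI 7 d uses 5 other libraries and had 19 genes past the test (0.18%), 9 higher (0.0852%) and 10 lower (0.0946%): 50 of the 76 were positive there and 113 of the 137 negative, where 48.4% of all genes were positive. Of the 31 tested genes of the odorant-binding protein list, which leaves out lush, 2 were positive and 29 negative in that span, with a median log2 fold change of -0.61. Obp83b had 5.52, 0.0746 and 0.155 CPM in TBI 7 d, so its mean there rests on replicate 1. In TBI 15 d it had 1.05 and 0.116 CPM.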

How the data were processed

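The deposited table holds whole-number read counts per gene for each library, made by the authors; per the submitters' processing notes the tools were FastQC, MultiQC, HISAT2, Picard, HTSeq and DESeq2, with versions, genome build and strand setting not given in the sources used here. Of 17481 gene IDs, 17343 were matched to symbols in BDGP6.54. The 5 categories of reads not assigned to a gene were left out; genes held 78.2% to 86.0% of all reads on the first library day. The 31 libraries of that day (11 groups, 9163576 to 26385804 gene counts) were fitted together with edgeR 4.0.16 in R 4.3.3 (filterByExpr, TMM, robust quasi-likelihood; common biological coefficient of variation 0.161), and p-values were adjusted over 10567 genes. The steps were tested on simulated data with the same spread for every gene and library, which does not cover uneven spread as in these libraries. DESeq2 1.42.0, RLE size factors, no filter, only the groups compared, scaling without mitochondrial genes, each library left out and a replicate block were alternatives.

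Same-numbered TBI 10 d and TBI 3 d libraries did not deviate together from their group means (r = -0.10, -0.08 and -0.24). TBI and sham libraries of 1 time did (0.37, 0.24 and 0.47 at 10 d, 0.60, 0.16 and 0.62 at 3 d), and the series' design calls them paired, so those pairs were fitted as an alternative added after the data were seen. The members and gene lists were chosen with earlier results of these data known. Named genes were up to 12 higher and 12 lower with the largest change among those that passed with and without TBI 10 d replicate 3, averaged 5 CPM or more over the 6 libraries without group overlap, the 6 of each with the smallest p, up to 4 passing genes per list, the injury list, yolk and control genes, and up to 8 each way for the difference; others named were chosen after their values were seen. Not all genes that this rule gave are described: CG34456, CG34227, Srg3, Dhc93AB, Vajk2 and lncRNA:CR44922 are among those left out.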

Additional observations from a re-analysis of the deposited data

Results flagged for a closer look

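The change between 3 d and 10 d differed between TBI and sham flies, by a test of the difference itself, for 4 genes. In TBI minus sham terms it was -4.60 log2 units for nerfin-1, -1.54 for CG44774 and -0.94 for CG15537, all 3 high in TBI 3 d. For mt:ATPase6 it was 1.98 log2 units, with falls in both conditions (-1.40 in TBI and -3.38 in sham flies). When 1 of the 12 libraries was left out, the call was lost in 10 of 12 fits for mt:ATPase6, 9 for CG44774, 8 for CG15537 and 1 for nerfin-1. CG44774 was also lost with TBI and sham libraries of 1 time paired (adjusted p = 0.0995), and nerfin-1 alone passed when only the 4 groups were fitted.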

How the results depend on the processing

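For TBI 10 d against TBI 3 d, 213 genes passed, and 398 by DESeq2, 12 with only the 2 groups fitted, and 45 to 242 with 1 library left out. For sham 10 d against sham 3 d the count was 62, and 168 by DESeq2, 30 with only its groups fitted, and 14 to 36 with 1 library left out. For the TBI minus sham difference it was 4, and 7 by DESeq2, 1 with only its groups fitted, and 0 to 11 with 1 library left out. For TBI 15 d against TBI 7 d it was 19, and 135 by DESeq2, 12 with no filter on low counts, 0 with only its groups fitted (935 at an unadjusted p under 0.05), and 0 to 73 with 1 library left out; scaling without mitochondrial genes gave 15 higher and 10 lower, against 9 and 10. For TBI 24 h against sham 24 h it was 1587 (804 higher, 783 lower), and 928 (664 and 264) with only its groups fitted, 1231 (740 and 491) with no filter, and 601 to 2002 with 1 library left out. The causes were not tested.

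With a replicate block over all groups the counts were 359 for TBI 10 d against TBI 3 d, 7 for the difference and 92 for TBI 15 d against TBI 7 d (61 higher, 31 lower). With TBI and sham libraries of 1 time paired, the replicate block gave 8 for the difference and 2835 for TBI 24 h against sham 24 h.

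Of the 77 named genes followed through these settings, 20 had not passed, and 6 of those changed sign when 1 library was left out. Over the 6 such fits log2 fold changes ran from -0.5864 to 0.0674 for Ets21C (positive without TBI 10 d replicate 1), from -1.204 to 0.3181 for TotC, from -0.6778 to 0.4524 for TotA, from -1.122 to 0.2931 for Lsp2 and from -0.7854 to 0.4758 for Lsp1beta (these 4 positive without TBI 3 d replicate 3). For AttC they ran from -0.03529 to 1.118 (negative without TBI 10 d replicate 3, and -0.003285 without TBI 3 d replicate 3). DESeq2 gave no adjusted p for Obp83b. Depth limits the low genes: antennal and cuticle genes rest on few reads in TBI 3 d.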

Other observations

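Between TBI 7 d and TBI 15 d, 19 genes passed (0.18%), 9 higher and 10 lower. Genes of the unfolded protein response in the endoplasmic reticulum were among the higher ones. Ire1, a sensor kinase of this response, had 136 and 167 CPM in TBI 15 d, against 95.1, 106 and 91.5 CPM in TBI 7 d (0.64 ± 0.11 log2 units, adjusted p = 0.0127). PEK, another such kinase, had 118 and 120 CPM in TBI 15 d, against 95.9, 78.0 and 77.5 CPM in TBI 7 d (0.50 ± 0.11, adjusted p = 0.0476). They were 2 of 20 genes of that list, and 0 of the 20 passed in TBI 10 d against TBI 3 d in edgeR (1 at an unadjusted p under 0.05, 0 by DESeq2), with log2 fold changes of 0.21 for Ire1 and 0.02 for PEK. Of the 31 tested genes of the odorant-binding protein list, Obp56g (-1.86) and Obp57c (-0.91) fell between TBI 7 d and TBI 15 d. This span has 2 TBI 15 d libraries; without TBI 15 d replicate 2, 0 genes passed in edgeR (1090 at an unadjusted p under 0.05), and 73 passed without TBI 15 d replicate 1.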
